A study of Drosophila melanogaster with 12 samples.

Results

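The genes described here are 10 components of insulin and TOR signalling in Drosophila melanogaster: InR, chico, Pi3K92E, Akt, foxo, Tsc1, gig, Rheb, Tor and S6k. They were taken from the deposited count table by their FlyBase symbols, with Tor listed in the annotation as mTor, and all 10 were among its 17494 genes. All 10 also passed the filter on low counts that left 7328 genes for testing. The cells were S2 cells, a line derived from Drosophila embryos and kept at 28°C in TNM-FH medium with serum. They received the cationic porphyrin TMPyP4, a ligand of G-quadruplexes (stacked folds of guanine-rich DNA or RNA), at 25, 50 or 100 µmol/L, or its solvent DMSO, and were sampled after 48 hours. The control is labelled 100 µg/L, and what that value refers to is not stated. Each of the 4 groups had 3 replicate poly(A)+ libraries, and all of them came from this single cell line.

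In flies, insulin-like peptides bind the receptor tyrosine kinase InR, and the substrate adaptor chico couples it to a lipid kinase of which Pi3K92E is the catalytic subunit. The lipid it makes recruits and activates the kinase Akt, which keeps the transcription factor foxo out of the nucleus and restrains the Tsc1-gig complex. That complex switches off the GTPase Rheb, and Rheb in its active form turns on the kinase Tor in TOR complex 1, whose substrate S6k promotes protein synthesis and growth. When insulin signalling is low, foxo raises transcription of InR itself and of the translation repressor Thor, so the pathway is known for feedback at the mRNA level. S2 cells have long served as a test system for this cascade because it responds there to insulin and to amino acids.

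Library depth was 4669194 to 9662038 gene counts, with 7711896 to 9241109 in DMSO and the lowest group at 50 µmol/L, 4669194 to 6125645. Of 6 markers fixed for hemocyte-like S2 cells, Hml, srp and Pxn had at least 108 counts in every library, whereas NimC1 had 0 to 3 counts and eater and Sr-CI were low, at most 27 counts. The 6 markers of other cells (tj, vas, elav, Mhc, Lsp2 and Fbp1) together reached at most 2.41 CPM in any library, and Lsp2 was at 0 throughout. The summed level of the hemocyte markers was 569 to 675 CPM in DMSO and 282 to 462 CPM over the 9 TMPyP4 libraries, and its part in the results below was not tested. The libraries also differed in how counts followed gene length. Regressed on log2 exonic length over 7263 genes, log2 CPM had a slope of 0.054 to 0.264 in DMSO, -0.031 to -0.00020 at 25, -0.222 to 0.021 at 50 and -0.110 to 0.029 at 100 µmol/L. DMSO replicate 1 had the steepest positive slope and replicate 2 at 50 µmol/L the steepest negative one. This matters for the genes described, because their transcripts are long. InR has 11367 exonic bases, Tor 7987, gig 5795, Akt 4889, S6k 4885, Pi3K92E 4839, foxo 4130, Tsc1 3896, chico 3578 and Rheb 1225, against a median of 2084 over tested genes. When the tested genes were divided by exonic length into 5 equal bins, 7 of the 10 genes fell in the longest, 2 (chico and Tsc1) in the next and Rheb in the second shortest.

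The genes lie on chromosome arms 2L, 3L and 3R (annotation BDGP6.54, in dm6 coordinates). InR (FBgn0283499) spans 3R, 21570248 to 21619321, on the minus strand, and is the longest locus of the set with 49074 bases. Rheb (FBgn0041191), at 3R, 5568921 to 5570491, plus strand, is the shortest with 1571 bases. Pi3K92E (FBgn0015279) lies at 3R, 20628972 to 20634732, minus strand, Akt (FBgn0010379) at 3R, 16099228 to 16105670, plus strand, foxo (FBgn0038197) at 3R, 14056945 to 14087978, plus strand, and Tsc1 (FBgn0026317) at 3R, 24130307 to 24134654, plus strand. On 3L are gig (FBgn0005198), at 20129181 to 20139010, plus strand, and S6k (FBgn0283472), at 5797549 to 5810931, minus strand. On 2L are Tor (FBgn0021796), at 13004480 to 13013197, plus strand, and chico (FBgn0024248), at 10242512 to 10247078, minus strand. Only chico shares exonic bases with another annotated gene, 380 bases with the antisense RNA asRNA:CR44995. The library kit marked strand, but whether counting used it is not stated, so the chico counts are uncertain to that extent.

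In DMSO the 10 genes spanned a wide range of levels. Per kilobase of exonic length, Rheb was highest, with 54.9 ± 4.05 RPKM (SD, n = 3). It stood clear of Tsc1 (23.0 ± 1.22 RPKM) and Pi3K92E (21.1 ± 2.52 RPKM), whose ranges overlapped. S6k (15.3 ± 2.76 RPKM), Tor (14.2 ± 1.99 RPKM) and gig (13.1 ± 1.05 RPKM) followed, and in that order each neighbour overlapped the next, including Pi3K92E and S6k. Akt (7.83 ± 1.47 RPKM) lay below gig without overlap, and chico (4.59 ± 1.06 RPKM) and foxo (3.45 ± 0.764 RPKM) below Akt, overlapping each other. InR was far below the rest, at 0.218 ± 0.0489 RPKM, a level at or above only 0.633% of tested genes. The median over tested genes was 17.1 RPKM, so only Rheb, Tsc1 and Pi3K92E were above it.

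**Figure D1:**
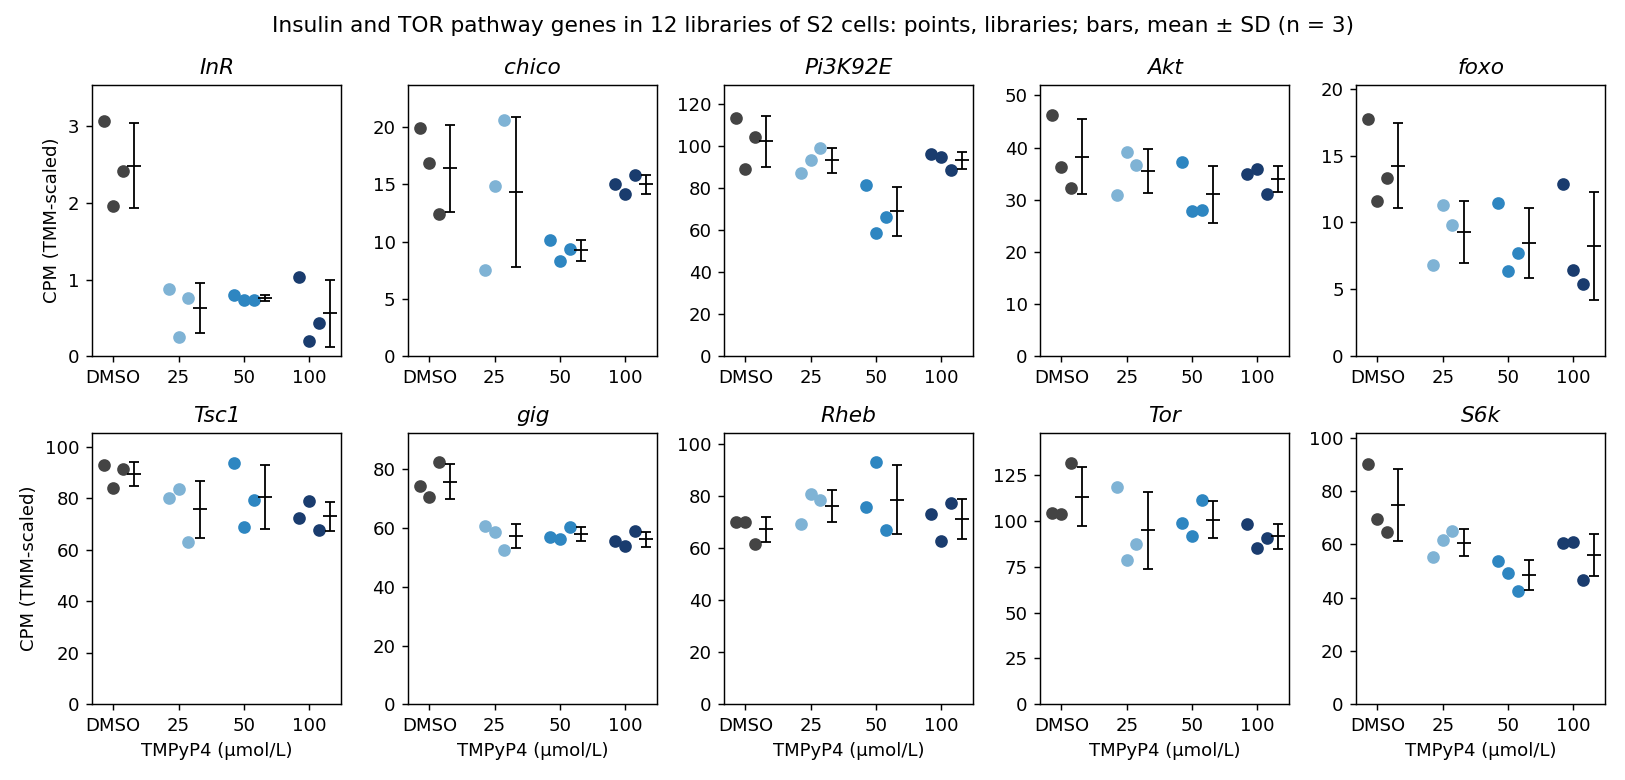
Level of each of the 10 genes in CPM (TMM-scaled; linear axes from 0, a scale of its own in each panel) in DMSO and at 25, 50 and 100 µmol/L TMPyP4. Points are single libraries in the order of replicates 1 to 3 and bars are the mean ± SD (n = 3); InR and gig are the genes in which all 9 TMPyP4 libraries lie below all 3 DMSO libraries.

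InR, the receptor at the top of the cascade, showed the largest fold difference of the 10 genes at every concentration. Its counts were 28, 15 and 23 in DMSO replicates 1 to 3, and 7, 2 and 6 at 25, 5, 3 and 4 at 50, and 8, 1 and 4 at 100 µmol/L. In CPM these were 3.07, 1.96 and 2.42 in DMSO, 0.880, 0.254 and 0.753 at 25, 0.804, 0.731 and 0.732 at 50, and 1.04, 0.202 and 0.433 at 100 µmol/L. All 9 TMPyP4 libraries were below all 3 DMSO libraries, and the levels of the 3 concentrations overlapped one another. In bulk RNA, fewer cells that express a gene and less of its RNA per cell cannot be told apart. The log2 fold change against DMSO was -1.96 at 25 (SE 0.542, edgeR adjusted p 0.0888), -1.69 at 50 (SE 0.57, edgeR adjusted p 0.0789) and -2.06 at 100 µmol/L (SE 0.558, edgeR adjusted p 0.0416). InR was thus lower past the threshold of 0.05 at 100 µmol/L only, and the 3 estimates differed from one another by less than their errors. InR passed the filter on counts through its DMSO libraries alone, since all 3 of them and none of the 9 TMPyP4 libraries reached its minimum of 1.31 CPM, so it could enter the test only as a gene that is higher in DMSO. This call disappeared when DMSO replicate 1, DMSO replicate 3, 25 µmol/L replicate 3, 50 µmol/L replicate 3, or replicate 2 or 3 at 100 µmol/L was omitted. The estimates ranged from -2.79 to -1.78 over the 12 omissions. Over the 6 omissions of a DMSO or 100 µmol/L library the edgeR adjusted p was 0.0359 to 0.197.

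The adaptor chico differed mainly at 50 µmol/L. Its CPM were 19.95, 16.9 and 12.4 in DMSO, 7.54, 14.9 and 20.6 at 25, 10.1, 8.28 and 9.33 at 50, and 15.0, 14.2 and 15.8 at 100 µmol/L. The 3 libraries at 50 µmol/L were below all DMSO and all 100 µmol/L libraries, while those at 25 µmol/L scattered from below the lowest to above the highest DMSO value. The log2 fold change at 50 µmol/L was -0.82 (SE 0.293, edgeR adjusted p 0.0947) and did not pass the threshold. At 25 it was -0.19 (95% interval -0.78 to 0.39) and at 100 µmol/L -0.12 (95% interval -0.71 to 0.46).

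Pi3K92E, the catalytic lipid kinase subunit, fell at 50 µmol/L. Its CPM were 113, 89.1 and 104 in DMSO, 87.0, 93.4 and 98.9 at 25, 81.4, 58.7 and 66.2 at 50, and 96.2, 94.4 and 88.5 at 100 µmol/L. The 50 µmol/L libraries were the 3 lowest of all 12, below every library of the other groups. The log2 fold change there was -0.57 (SE 0.124, edgeR adjusted p 0.0164), against -0.14 (95% interval -0.39 to 0.12) both at 25 and at 100 µmol/L. The difference between 50 and 25 µmol/L was -0.43 (SE 0.124, edgeR adjusted p 0.313) and between 100 and 50 µmol/L 0.43 (SE 0.125, edgeR adjusted p 0.519), so a separate behaviour at 50 µmol/L did not pass its own test. The call was lost on omission of DMSO replicate 1 or of replicate 2 or 3 at 50 µmol/L (-0.71 to -0.48, edgeR adjusted p 0.00256 to 0.0918).

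Akt, the kinase that Pi3K activity recruits, did not pass the threshold in any comparison. It had 46.3, 36.4 and 32.2 CPM in DMSO, 30.9, 39.1 and 36.8 at 25, 37.3, 27.8 and 28.0 at 50, and 34.9, 36.0 and 31.2 at 100 µmol/L, and every pair of groups overlapped. The intervals of its log2 fold change were -0.44 to 0.23 at 25, -0.65 to 0.052 at 50 and -0.52 to 0.17 at 100 µmol/L.

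The transcription factor foxo, the nuclear output that Akt restrains, had lower means at each concentration but no call. Its CPM were 17.8, 11.6 and 13.3 in DMSO, 6.79, 11.3 and 9.79 at 25, 11.4, 6.34 and 7.68 at 50, and 12.8, 6.47 and 5.41 at 100 µmol/L. All libraries at 25 and 50 µmol/L were below the lowest DMSO library, and at 100 µmol/L replicate 1 lay within the DMSO range. Its log2 fold change was -0.62 (SE 0.314, edgeR adjusted p 0.367) at 25, -0.73 (SE 0.325, edgeR adjusted p 0.164) at 50 and -0.79 (SE 0.319, edgeR adjusted p 0.162) at 100 µmol/L. Without 100 µmol/L replicate 1 the last of these was -1.27 and passed the threshold (edgeR adjusted p 0.0391), the only 1 of the 12 omissions to give a call there. The estimate was -1.27 to -0.54 over the 12, and the edgeR adjusted p reached 0.49 over the 6 omissions of a DMSO or 100 µmol/L library.

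The partners of the TSC complex, which inhibits Rheb, were both lower in mean, and gig (the Tsc2 subunit with the GTPase-activating domain) was called. The CPM of gig were 74.4, 70.7 and 82.5 in DMSO, 60.6, 58.8 and 52.6 at 25, 57.1, 56.3 and 60.6 at 50, and 55.5, 54.0 and 59.1 at 100 µmol/L. All 9 TMPyP4 libraries lay between 52.6 and 60.6 CPM, below the lowest DMSO library, and the 3 concentrations could not be separated. In log2 terms gig differed from DMSO by -0.41 at 25 (SE 0.105, edgeR adjusted p 0.0658), -0.39 at 50 (SE 0.107, edgeR adjusted p 0.0396) and -0.43 at 100 µmol/L (SE 0.106, edgeR adjusted p 0.0273). The differences between concentrations were at most 0.044 in size. The call at 50 µmol/L survived 4 of the 12 omissions of a library, those of DMSO replicate 2, replicate 1 at 25 and at 50 µmol/L and replicate 3 at 100 µmol/L. The estimate was -0.44 to -0.32 over all 12, and the edgeR adjusted p 0.0264 to 0.144 over the 6 omissions of a DMSO or 50 µmol/L library. The call at 100 µmol/L disappeared on omission of DMSO replicate 1, DMSO replicate 3 or any 100 µmol/L library. Over the 6 omissions of a DMSO or 100 µmol/L library it had -0.49 to -0.37 (edgeR adjusted p 0.021 to 0.115).

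Tsc1, the stabilising subunit, had 93.1, 84.1 and 91.4 CPM in DMSO, 80.3, 83.7 and 63.1 at 25, 93.6, 68.7 and 79.2 at 50, and 72.2, 79.1 and 67.6 at 100 µmol/L. All libraries at 25 and 100 µmol/L were below the lowest DMSO library, whereas replicate 1 at 50 µmol/L was the highest of all 12. The log2 fold changes of -0.24 at 25 (95% interval -0.51 to 0.028), -0.15 at 50 (-0.42 to 0.12) and -0.30 at 100 µmol/L (-0.57 to -0.027) did not pass the threshold after adjustment (edgeR adjusted p 0.389, 0.482 and 0.188). Per exonic length the level of gig was 0.538 to 0.607 of that of Tsc1 in the DMSO libraries and 0.410 to 0.587 in the TMPyP4 libraries, so the ratio of the subunits overlapped between the groups.

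Rheb, the GTPase that the TSC complex switches off and the only short gene of the set, was the only one with higher means under TMPyP4. It had 70.3, 70.0 and 61.5 CPM in DMSO, 69.3, 80.8 and 78.8 at 25, 75.9, 93.3 and 67.1 at 50, and 73.4, 62.7 and 77.5 at 100 µmol/L. The groups overlapped at each concentration. The log2 fold changes of 0.18, 0.22 and 0.087 had 95% intervals of -0.086 to 0.45, -0.048 to 0.50 and -0.18 to 0.36 and passed no test (edgeR adjusted p 0.534, 0.279 and 0.75).

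Tor, the kinase at the core of both TOR complexes, had 104, 104 and 132 CPM in DMSO, 119, 78.8 and 87.3 at 25, 98.9, 91.6 and 112 at 50, and 98.5, 85.3 and 90.7 at 100 µmol/L. Only at 100 µmol/L were all treated libraries below all DMSO libraries. Its log2 fold changes of -0.26, -0.17 and -0.31 had 95% intervals of -0.55 to 0.043, -0.47 to 0.13 and -0.61 to -0.0061, and none passed the threshold (edgeR adjusted p 0.418, 0.47 and 0.221).

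S6k, the kinase that TOR complex 1 phosphorylates, fell at 50 µmol/L. Its CPM were 90.2, 69.6 and 64.8 in DMSO, 55.3, 61.6 and 65.1 at 25, 53.7, 49.2 and 42.6 at 50, and 60.4, 60.9 and 46.8 at 100 µmol/L. All libraries at 50 and 100 µmol/L were below the lowest DMSO library, and at 25 µmol/L replicate 3 was just within the DMSO range. Against DMSO the log2 fold change was -0.63 at 50 µmol/L (SE 0.147, edgeR adjusted p 0.0214), -0.30 at 25 (SE 0.143, edgeR adjusted p 0.318) and -0.42 at 100 µmol/L (SE 0.144, edgeR adjusted p 0.0961). Its call was lost on omission of DMSO replicate 1 or of replicate 2 or 3 at 50 µmol/L (-0.72 to -0.47, edgeR adjusted p 0.00909 to 0.12).

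Counted together, 0 of the 10 genes passed the threshold at 25 µmol/L by edgeR. At an unadjusted p under 0.05 there were 3, against 15.6% of all tested genes. DESeq2 called 1 of the 10 there, gig, and 232 of all tested genes. In edgeR 3 passed at 50 µmol/L (Pi3K92E, gig and S6k) and 2 at 100 µmol/L (InR and gig), all of them lower. The direction of InR was fixed by the filter on counts, so gig is the 1 call at 100 µmol/L that could have gone either way. The same limit holds for InR in the counts below of genes without overlap and of genes with a log2 fold change below 0. It also holds for InR in the median log2 fold change of the 10 genes. These comparisons share their DMSO libraries. The share of all tested genes called lower was 1.13% at 25, 5.16% at 50 and 3.59% at 100 µmol/L, and 0.532%, 1.69% and 1.58% were called higher. The groups did not overlap, with the treated libraries lower, in 4 genes at 25 (InR, foxo, Tsc1 and gig), 6 at 50 (InR, chico, Pi3K92E, foxo, gig and S6k) and 5 at 100 µmol/L (InR, Tsc1, gig, Tor and S6k). Over all tested genes this held for 8.62%, 13.0% and 13.4%. The log2 fold change was below 0 in 9 of the 10 genes at each concentration, all but Rheb, against 47.5%, 47.4% and 47.8% of all tested genes. With a block for 4 runs of evenly spaced numbers in the sample titles, whose meaning is not stated, 0 of the 10 genes were called at any concentration, but the same fit called only 12, 0 and 1 of all 7328 tested genes at 25, 50 and 100 µmol/L, so these counts say nothing particular to the 10. At an unadjusted p under 0.05 it had 4, 5 and 2 of the 10 genes and 14.9%, 15.6% and 7.48% of all tested genes. The runs were partly confounded with the groups. In order of title number, run 2 held only DMSO and 25 µmol/L libraries and run 4 only 50 and 100 µmol/L libraries. An effect of run and one of TMPyP4 therefore cannot be fully told apart. The median log2 fold change of the 10 genes was -0.25, -0.48 and -0.30, and that of all tested genes 0.013, 0.021 and 0.015.

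**Figure D2:**
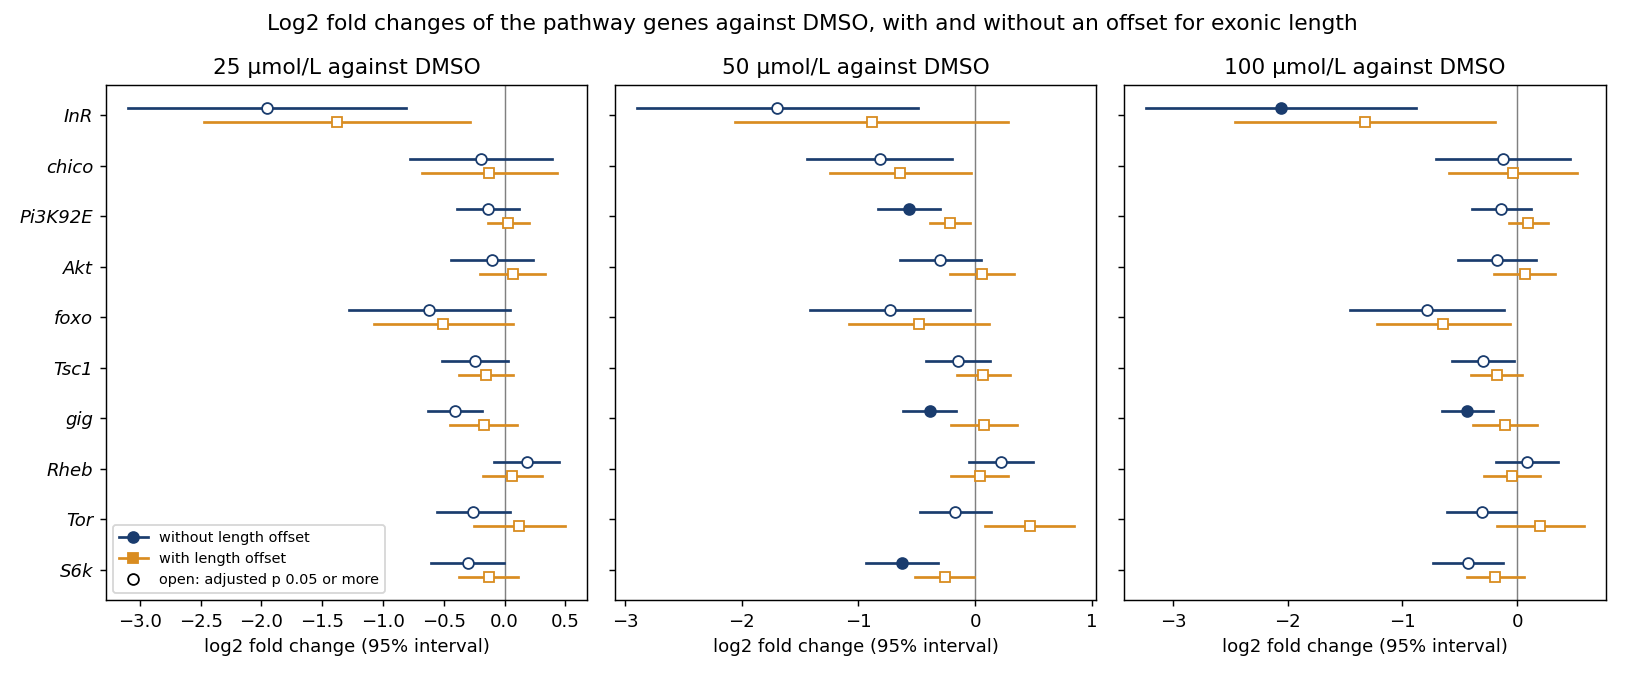
Log2 fold change against DMSO of the 10 genes at 25, 50 and 100 µmol/L TMPyP4, with 95% intervals from edgeR; circles are from the fit without and squares from the fit with an offset for exonic length, and filled symbols have an adjusted p under 0.05. Filled circles are Pi3K92E, gig and S6k at 50 and InR and gig at 100 µmol/L, and no square is filled.

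Long genes as a class were lower too. In the longest bin (1453 genes, from 4054 exonic bases) the log2 fold change was below 0 in 82.2% of genes at 25, 92.6% at 50 and 86.7% at 100 µmol/L, with medians of -0.27, -0.49 and -0.36. In that bin 4.75%, 21.8% and 14.2% of genes were called lower. A further fit removed from each library its trend of log2 CPM on exonic length. With this offset, 0 of the 10 genes passed the threshold at 25, 50 or 100 µmol/L in edgeR, with 1, 4 and 2 genes at an unadjusted p under 0.05. Of all tested genes the fit called 0.791%, 1.19% and 2.93%, and 902, 1176 and 1262 of the 7328 had an unadjusted p under 0.05. InR, whose direction the filter on counts had fixed, had the most negative values, -1.38 at 25 (SE 0.518, edgeR adjusted p 0.266), -0.89 at 50 (SE 0.555, edgeR adjusted p 0.449) and -1.33 at 100 µmol/L (SE 0.537, edgeR adjusted p 0.203). For gig the values became -0.17, 0.075 and -0.10 (SE 0.131, 0.134 and 0.132), and for Pi3K92E and S6k at 50 µmol/L -0.21 (SE 0.0824, edgeR adjusted p 0.215) and -0.26 (SE 0.12, edgeR adjusted p 0.301). Tor turned to 0.12, 0.47 and 0.20, with an edgeR adjusted p of 0.841, 0.215 and 0.625. For foxo they were -0.50, -0.48 and -0.64. The median of the 10 genes was -0.13, -0.087 and -0.074. The offset used all annotated exons of a gene, and transcripts in S2 cells can be shorter.

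**Figure D3:**
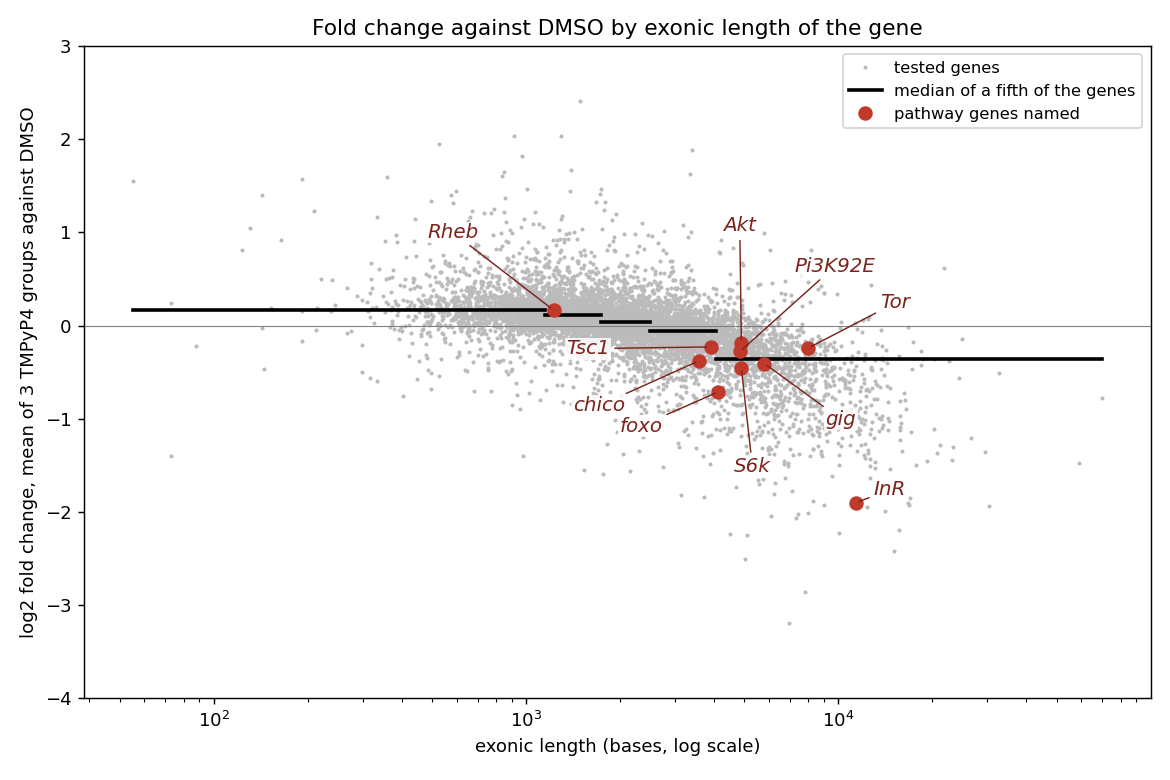
Log2 fold change of the mean of the 3 TMPyP4 groups against DMSO (vertical axis) by exonic length in bases (horizontal axis, log scale) for 7263 tested genes (grey), the median of each of 5 length bins (black lines) and the 10 pathway genes (red). The longest bin has a median of -0.36; InR at 11367 bases lies far below that line, and Rheb at 1225 bases lies above 0.

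When the 3 TMPyP4 groups were averaged and compared with DMSO, gig and S6k were lower. InR was also past the threshold, but only its DMSO libraries took it past the filter on counts, so its direction was fixed by the filter. For InR the log2 value was -1.90 (SE 0.409, edgeR adjusted p 0.00826), for gig -0.41 (SE 0.084, edgeR adjusted p 0.00642) and for S6k -0.45 (SE 0.115, edgeR adjusted p 0.0199). Of all tested genes 6.82% were called lower in this comparison, and 28.8% of the longest bin. All 9 TMPyP4 libraries were below all 3 DMSO libraries for InR and gig, a pattern that 4.41% of tested genes had, but not for S6k. The call of InR was lost without DMSO replicate 1 (edgeR adjusted p 0.0788), that of S6k also without DMSO replicate 1 (0.222) and that of gig without DMSO replicate 3 (0.0636), and each held in its other 11 omissions. With the length offset 0 of the 10 genes passed in edgeR, against 3.68% of all tested genes. At an unadjusted p under 0.05 this fit had 2 of the 10 genes and 1294 of all 7328 tested genes. The log2 fold change with the offset was -1.20 (SE 0.394, edgeR adjusted p 0.109) for InR, -0.067 (SE 0.107, edgeR adjusted p 0.799) for gig and -0.19 (SE 0.094, edgeR adjusted p 0.299) for S6k.

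The mean of the 10 genes in a library followed the length slope of that library in part. On the centred log2 CPM scale the mean was 0.49, 0.22 and 0.27 in DMSO, -0.13, -0.054 and 0.030 at 25, -0.014, -0.26 and -0.21 at 50, and 0.071, -0.21 and -0.20 at 100 µmol/L. DMSO replicate 1, with the steepest positive slope, had the highest mean, and 50 µmol/L replicate 2, with the steepest negative slope, the lowest. At 50 and at 100 µmol/L, replicate 1 had the highest slope and the highest mean of its group. The order did not hold everywhere: at 25 µmol/L replicate 2 had the highest slope and replicate 3 the highest mean, and at 100 µmol/L replicate 3 had the lowest slope and replicate 2 the lowest mean. The long genes of the set enter both measures. InR, whose direction the filter on counts had fixed, enters the mean.

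**Figure D4:**
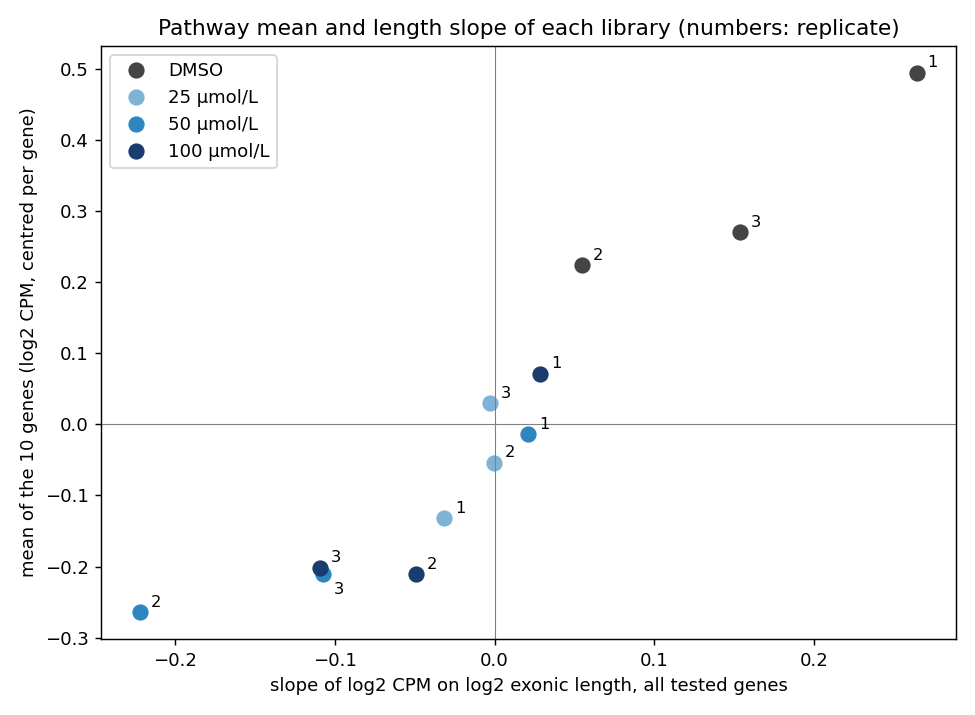
Mean centred log2 CPM of the 10 genes (vertical axis) against the length slope of the library, in log2 CPM per doubling of exonic length over 7263 tested genes (horizontal axis), 1 point for each of the 12 libraries, coloured by group and numbered by replicate. The DMSO libraries lie at the upper right, with replicate 1 at a slope of 0.264 and a mean of 0.49, and 50 µmol/L replicate 2 at the lower left, at -0.222 and -0.26. The mean includes InR, whose direction the filter on counts had fixed.

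Between concentrations 0 of the 10 genes passed the threshold by edgeR or DESeq2 (at an unadjusted p under 0.05 in edgeR, 2 genes for 50 against 25, 0 for 100 against 25 and 2 for 100 against 50 µmol/L). Of all tested genes edgeR called 0.300%, 0.205% and 0.0409% in these comparisons, and 10.9%, 5.91% and 6.50% had an unadjusted p under 0.05. DESeq2 called 43, 24 and 9 of all tested genes in them. At 50 µmol/L Pi3K92E and S6k were below all 25 µmol/L libraries, and at 100 µmol/L chico and Pi3K92E were above all 50 µmol/L libraries, patterns that 6.77% and 6.18% of tested genes had. The pairs of groups overlapped for the other genes. The log2 difference of chico between 100 and 50 µmol/L was 0.69 (SE 0.297, edgeR adjusted p 0.697). A slope was fitted over the concentrations, DMSO being 0. It was called in 0 of the 10 genes by edgeR and by DESeq2, with 4 at an unadjusted p under 0.05 in each. Of all tested genes edgeR called 0.628%, with 17.2% at an unadjusted p under 0.05. DESeq2 called 242 of them, with 1292 at an unadjusted p under 0.05. The largest slopes were those of InR, -0.021 log2 units per µmol/L (SE 0.00637, edgeR adjusted p 0.117), and foxo, -0.0071 (SE 0.00315, edgeR adjusted p 0.256). For InR the filter on counts had fixed the direction. Tested jointly for a difference anywhere among the 4 groups, gig passed (edgeR adjusted p 0.0421), Pi3K92E and InR were at the threshold (0.05001 and 0.0511), and 4.26% of all tested genes were called. InR could enter this test too only as a gene that is higher in DMSO.

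Around these 10 genes, 70 further genes of the pathway were found in the table from lists of ligands, PI3K components, TSC regulators, TOR complexes, nutrient sensors, AMP kinase, effectors and published targets of foxo and of the transcription factor REPTOR, and 57 passed the filter. Of the 57, 0 were higher and 0 lower at 25 µmol/L, 0 and 4 at 50, and 0 and 2 at 100 µmol/L, against the shares of all tested genes given above, 1.13%, 5.16% and 3.59% lower, near which these counts lie. Their median log2 fold changes were -0.013, -0.12 and -0.037, and those of all tested genes 0.013, 0.021 and 0.015. Ligand genes were close to silent. Ilp1, Ilp3, Ilp4 and Ilp5 had 0 counts in every library, and Ilp2 and Ilp7 at most 2, while Ilp6 (9.62 ± 1.71 CPM in DMSO, SD, n = 3) and the secreted insulin-binding protein ImpL2 (369 ± 70.8 CPM) were tested and not called.

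Among these further genes scyl, a stress-induced gene whose product inhibits TOR complex 1 upstream of the TSC complex, was past the threshold at 50 and 100 µmol/L. It had 5.04, 3.14 and 3.78 CPM in DMSO, 1.26, 1.91 and 1.76 at 25, 1.29, 1.22 and 1.28 at 50, and 0.648, 0.404 and 0.866 at 100 µmol/L. All TMPyP4 libraries were below all DMSO libraries and those at 100 µmol/L were the lowest. Its log2 fold changes were -1.28 at 25 (SE 0.384, edgeR adjusted p 0.115), -1.65 at 50 (SE 0.422, edgeR adjusted p 0.0301) and -2.54 at 100 µmol/L (SE 0.44, edgeR adjusted p 0.00422). With the length offset the value at 100 µmol/L was -2.50 and still passed (SE 0.427, edgeR adjusted p 0.00557), and that at 50 µmol/L was -1.54 and did not (edgeR adjusted p 0.0865). Its call at 100 µmol/L survived each of the 12 omissions of a library, and that at 50 µmol/L disappeared on omission of replicate 1 or 3 of DMSO or of replicate 2 or 3 at 50 µmol/L. The gene has 3124 exonic bases and at most 15 counts in a TMPyP4 library. It passed the filter through the 3 DMSO and 2 of the 25 µmol/L libraries and through none at 50 or 100 µmol/L. In those comparisons the filter therefore fixed its direction, and its calls there, their survival of omissions and the values with the offset are a description.

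REPTOR, a transcription factor that TOR complex 1 holds in the cytoplasm, had 22.1, 11.1 and 11.3 CPM in DMSO and 1.95 to 8.52 CPM over the TMPyP4 libraries. Its log2 fold change was -1.48 at 50 µmol/L (SE 0.418, edgeR adjusted p 0.0436) and just short of the threshold at 100 µmol/L (-1.44, SE 0.409, edgeR adjusted p 0.0501). With the length offset it was -0.92 (edgeR adjusted p 0.203) and -0.97 (0.126). Pi3K68D, a PI3K of another class, fell by 0.65 on the log2 scale at 50 µmol/L (SE 0.163, edgeR adjusted p 0.0279) and by 0.58 at 100 µmol/L (SE 0.159, edgeR adjusted p 0.0437). Iml1, a subunit of the complex that turns off TOR complex 1 when amino acids are scarce, fell by 0.49 at 50 µmol/L (SE 0.128, edgeR adjusted p 0.0322). With the length offset the values at 50 µmol/L were -0.039 for Pi3K68D and -0.13 for Iml1, and neither passed. The offset also gained a call, in SNF4Agamma, the gamma subunit of AMP kinase, which is named here after its values were seen. Its CPM were 68.8 to 74.9 in DMSO, 70.3 to 75.0 at 25, 67.1 to 68.95 at 50 and 81.1 to 91.3 at 100 µmol/L. Its log2 fold changes of 0.0044, -0.098 and 0.26 were not called, whereas with the offset they were 0.58 (edgeR adjusted p 0.0939), 0.76 (0.0327) and 1.02 (0.00226). Of the 5 AMP kinase genes, 0 were called without the offset by edgeR, and at an unadjusted p under 0.05 there was 1, SNF4Agamma at 100 µmol/L. The 50 µmol/L calls of REPTOR, Pi3K68D and Iml1 without the offset disappeared on omission of DMSO replicate 1, DMSO replicate 3 or replicate 2 or 3 at 50 µmol/L. Over the omissions the log2 fold changes at 50 µmol/L were -2.06 to -1.08 for REPTOR, -0.79 to -0.49 for Pi3K68D and -0.54 to -0.39 for Iml1. The REPTOR call also disappeared without replicate 2 or 3 at 25 or replicate 1 or 2 at 100 µmol/L, and survived 4 of the 12 omissions. The Pi3K68D call at 100 µmol/L likewise survived 4 of the 12 omissions.

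The remaining named partners of the 10 genes were not called at any single concentration. Thor, the translation repressor that foxo induces, had 53.6 to 101 CPM in DMSO and means of 49.3, 43.8 and 70.5 CPM at 25, 50 and 100 µmol/L. Its log2 fold changes were -0.51 (SE 0.267), -0.71 (SE 0.276) and 0.0069 (SE 0.265) (edgeR adjusted p 0.38, 0.118 and 0.993). Pi3K21B, the regulatory partner of Pi3K92E, and Pdk1, the kinase that activates Akt, had their lowest means at 50 µmol/L, as Pi3K92E did. Their log2 fold changes there were -0.63 (SE 0.269, edgeR adjusted p 0.15) and -0.60 (SE 0.288, edgeR adjusted p 0.197). Both genes are long, with 4938 and 6593 exonic bases. The longest bin, in which they fall, also had its lowest median at 50 µmol/L, -0.49, against -0.27 at 25 and -0.36 at 100 µmol/L. In TOR complex 1, raptor, whose exons share 1669 bases with Mipp2 on the same strand, had log2 fold changes of -0.55, -0.63 and -0.59 (edgeR adjusted p 0.235, 0.0962 and 0.134) and was lower in the mean of the 3 groups (-0.59, SE 0.177, edgeR adjusted p 0.0428; -0.13 and 0.715 with the length offset). The short subunit gene Lst8 had 0.027, 0.066 and 0.097 (SE 0.106, 0.108 and 0.107). In TOR complex 2, rictor had -0.14, -0.36 and -0.22 (SE 0.177, 0.182 and 0.179).

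The 10 genes varied together only in part. Pearson's r of log2 CPM over the 12 libraries was above 0 in 33 of the 45 pairs of these genes, with a median of 0.405, against a median of 0.000405 over all pairs of tested genes. The highest values were those of Akt with S6k (0.848), InR with gig (0.803) and Pi3K92E with S6k (0.784). InR enters the pairs, their median and the mean of the 10, although only its DMSO libraries took it past the filter on counts. Its correlations are a description for that reason too. The genes outside the set whose pattern was most like the mean of the 10 were Ulp1 (r = 0.984), Ten-m (0.983), psq (0.979), Hipk (0.973) and Smr (0.973), and these have 5498 to 15579 exonic bases. Taken one by one, the closest pattern was poe for InR (0.938), TBPH for chico (0.889), Ltn1 for Pi3K92E (0.974), eRF3 for Akt (0.967), CG9932 for foxo (0.949), PolA1 for Tsc1 (0.877), Epg5 for gig (0.961), Gos28 for Rheb (0.895), Atg2 for Tor (0.968) and MESK2 for S6k (0.965). All of these values are over the same 12 libraries, whose length slopes the genes share, and describe likeness only. The closest gene had 16216 exonic bases for InR, 3222 for chico, 5404 for Pi3K92E, 4409 for Akt and 8998 for foxo. It had 4624 for Tsc1, 7607 for gig, 894 for Rheb, 6266 for Tor and 4600 for S6k.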

How the data were processed

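The authors deposited whole-number read counts per gene, 1 column per library, not normalised. Per the submitters' processing notes, the tools were FastQC 0.11.8, MultiQC 0.9, HISAT2 2.0.5, SAMtools 1.7 and HTSeq 0.9.1 and the build dm6; the annotation and the strand setting are not given in the sources used here. Per the labels, all libraries were mixed with RNA of zebrafish, and how zebrafish reads were set aside is not stated. Reads without a feature (0.783 to 1.04%) and ambiguous reads (1.87 to 2.71% of a library's counts) stayed out of all fits. Of 17494 gene identifiers, 17358 matched annotation BDGP6.54, used for names, positions and exonic lengths. Of the list entries, FNIP and eEF2K matched no gene.

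Genes passed filterByExpr (minimum count 10, minimum total 15), were scaled with TMM and tested with edgeR 4.0.16 (glmQLFit, glmQLFTest, two-sided) in R 4.3.3, in 1 fit of 12 libraries with group as the only term; the trend had its own fit on concentration. P-values were adjusted by Benjamini-Hochberg over 7328 genes, with a threshold of 0.05. CPM scale counts by TMM-adjusted library size, RPKM are CPM per kilobase of exonic length, and 2 was the prior count for log2 CPM. The SE is the absolute log2 fold change over the square root of F. The length offset was a lowess curve (span 0.3) per library. The fits were tested on simulated counts. The labels do not say that replicates were separate cultures, so p-values measure the spread between these libraries. The genes, lists and tests were chosen with earlier results of these data known. All 10 genes were described whatever their values. Other pathway genes were named if called against DMSO at any concentration, plus, whatever their values, a set of partners (Thor, raptor, rictor, Lst8, Pi3K21B and Pdk1) of which 1 more member is not reported here. Likeness was the highest Pearson's r. Alternatives were RLE scaling, DESeq2 1.42.0, no filter, blocks for replicate number and for runs of title numbers, the length offset, fits of the compared groups only and leaving out each library. Ranges of adjusted p over omissions cover only those of a library from a group compared.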

Additional observations from a re-analysis of the deposited data

How the results depend on the processing

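Counts of called genes among the 10 depended on single libraries, on a term for length and on a block for runs of title numbers, as did counts over all tested genes. Leaving out each library in turn gave 0 to 1 genes at 25, 0 to 4 at 50 and 0 to 2 at 100 µmol/L, 1 to 5 for the mean of the TMPyP4 groups, 0 to 4 in the joint test, 0 to 2 for the trend, and 0 to 1 for 50 against 25, 0 to 0 for 100 against 25 and 0 to 0 for 100 against 50 µmol/L. Over all tested genes the same omissions gave 6 to 200 at 25, 50 to 1233 at 50 and 89 to 520 at 100 µmol/L. For the other comparisons no count over all tested genes is given beside these ranges, so they say nothing particular to the 10. The length offset and the block for 4 runs of title numbers each left 0 genes at 50 and 100 µmol/L, 0 for the mean of the TMPyP4 groups and 0 in the joint test. Over all tested genes the last 2 of these called 270 and 167 genes with the offset and 89 and 16 with the block. At an unadjusted p under 0.05 the title-number block had 5, 2, 3 and 5 of the 10 genes and 15.6%, 7.48%, 15.8% and 13.4% of all tested genes. Its runs were partly confounded with the groups, as given above. At 25 µmol/L, RLE scaling, DESeq2 and no filter each called 1 gene, gig. The joint test called 2 with RLE scaling, 4 with DESeq2 and 4 without a filter. Over all tested genes it called 315, 705 and 1087 in these settings, against 312 without the change. The mean of the TMPyP4 groups had 5 without a filter, where the count over all tested genes was 1079, against 720 with it. At 50 µmol/L there was 1 when only its 6 libraries were fitted, with 218 over all tested genes, against 502 in the fit of 12. Without both DMSO replicate 1 and 50 µmol/L replicate 2, chosen after seeing the data, 0 genes were called at 50 and 100 µmol/L and in the joint test, and 1 for the mean of the TMPyP4 groups. The cause was not tested, and no count over all tested genes is given beside these counts. Replicate numbers did not pair the samples (6 of 18 same-number pairs correlated over 0.1, from -0.378 to 0.442), and with a replicate block the joint test called 2 genes, the other counts staying at 0, 3, 2 and 3 against DMSO. The replicate block also called more of all tested genes than the fit without it in each of these comparisons. The change in the joint test therefore says nothing particular to the 10. Over all tested genes, 122, 502 and 379 were called at 25, 50 and 100 µmol/L, 58, 87 and 215 with the length offset, 12, 0 and 1 with the title-number block, 232, 756 and 543 with DESeq2 and 464, 1058 and 777 without a filter.

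Among the genes followed through all settings, which leave out SNF4Agamma, directions changed only in values that passed no test, except gig at 50 µmol/L. SNF4Agamma at 50 µmol/L turned from lower to higher with the length offset and passed the threshold there, as given above. With the length offset the log2 fold change was 0.031 at 25 and 0.098 at 100 µmol/L for Pi3K92E, 0.065, 0.060 and 0.065 for Akt (0.063 for the mean of the groups), 0.12, 0.47 and 0.20 for Tor (0.26), 0.072 at 50 for Tsc1, 0.075 at 50 for gig and -0.045 at 100 for Rheb. It was 0.18, 0.18 and 0.22 for rictor (mean 0.19), -0.040 and -0.0225 at 25 and 50 for Lst8 (mean -0.015), -0.15 at 100 for Thor, 0.041 at 100 for Pi3K21B (mean 0.012) and 0.34 at 100 for Pdk1 (mean 0.24). With the title-number block it was, at 100 µmol/L, 0.012 for Pi3K92E, -0.23 for Rheb, -0.28 for Thor, 0.11 for rictor, -0.022 for Lst8 and 0.40 for Pdk1 (mean 0.041). Thor at 100 was -0.00803 with RLE scaling, -0.0086 with DESeq2 and -0.0042 without a filter. Leaving out 1 library gave, at 25 µmol/L, -0.55 to 0.11 for chico, -0.22 to 0.054 for Akt, -0.31 to 0.029 for rictor, -0.031 to 0.058 for Lst8, -0.097 to 0.32 for Pi3K21B and -0.022 to 0.34 for Pdk1. At 100 µmol/L it gave -0.29 to 0.044 for chico, -0.16 to 0.36 for Thor, -0.32 to 0.024 for Pi3K21B and -0.25 to 0.18 for Pdk1, and for the mean of the groups -0.37 to -0.017 for Pi3K21B and -0.26 to -0.039 for Pdk1. Without both libraries named above it was 0.046 for Akt and 0.021 for rictor at 25, and at 100 µmol/L 0.043 for chico, -0.16 for Thor, 0.022 for Pi3K21B (mean 0.012) and 0.060 for Pdk1 (mean 0.044).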
